A study of Mus musculus with 18 samples.

Results

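RNA levels of the epidermal growth factor receptor (EGFR) family were examined in mouse colon by RNA-Seq. The family was taken as 10 genes chosen by symbol, the 3 receptors Egfr, Erbb2 and Erbb3 and the 7 ligands Egf, Tgfa, Areg, Ereg, Hbegf, Btc and Epgn, out of 47729 genes listed. All 10 were found by their Ensembl identifiers, and none was chosen for its level. The mice, all on a C57BL/6 background, formed 3 groups of 3. Control WT mice (numbered 1 to 3) carried the wild-type genotype and the control label. AOM-DSS WT mice (4 to 6) were wild-type mice given azoxymethane (AOM), a carcinogen, at 10 mg/kg and then dextran sulfate sodium (DSS), which injures the colon lining, at 2.5% in 3 cycles. AOM-DSS Claudin-2TG mice (7 to 9) had that treatment and carried a transgene for claudin-2, a tight junction protein, driven by the villin promoter of the intestinal epithelium. Ages were not given in the sources used here, and the deposited protocol text names AOM and DSS under the control samples too, so the control group rests on the treatment label. No untreated transgenic group was analysed, so the effects of genotype and treatment cannot be told apart where transgenic mice are set against control mice. The labels do not say whether a colon sample held tumor, and they do not state that each numbered library is 1 mouse, so p-values measure the spread between these libraries.

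The receptors of this family are tyrosine kinases of the cell surface that pair with each other when a ligand binds and then switch on the RAS-ERK and PI3K pathways. ERBB2 binds no known ligand and serves as a partner, whereas ERBB3 has little kinase activity of its own and binds neuregulins. The ligands are made as membrane proteins and are released by proteases, and in the gut this signaling drives growth of crypt cells and repair of the epithelium after injury.

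Between 14142711 and 22262546 counts fell on genes in a mouse. Counts of the 2 lanes of a library agreed within sampling noise (chi-square over its degrees of freedom 0.995 to 1.06), while mice sharing a group gave 16.8 to 66.3, so lanes were added and counted as 1 sample. Cldn2 itself had a level of 191, 258 and 243 CPM (counts scaled to a common library total) in control WT, 122, 136 and 134 CPM in AOM-DSS WT and 209, 217 and 249 CPM in AOM-DSS Claudin-2TG mice. It was higher in transgenic than in AOM-DSS WT mice (log2 fold change 0.78, adjusted p = 0.0103, edgeR's quasi-likelihood test; lost without mouse 8 or 9, at 0.0580 and 0.0597), while against control WT the difference was -0.03 (95% interval -0.30 to 0.24). In AOM-DSS WT against control WT, Cldn2 fell by 0.82 (adjusted p = 0.0138, edgeR's quasi-likelihood test; lost without mouse 2 or 3, at 0.0635 and 0.0554). By Xist and 4 Y-linked genes, control WT mouse 1 was female and the 8 other mice were male. The 10 epithelial markers summed to 22760 to 29590 CPM in every mouse, and the 6 colon markers to 5798 to 11530 CPM, as the tissue label says.

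Levels of different genes were set side by side as CPM per kilobase of gene length. In control WT mice, Erbb3 stood at 54.9 ± 10.5 CPM per kb (SD, n = 3) and Erbb2 at 47.8 ± 12.9 CPM per kb, and the ranges of these neighbors overlapped. Areg, the gene for amphiregulin, was next and first among the ligands at 42.0 ± 10.9 CPM per kb, and its range overlapped that of Erbb2. Hbegf followed at 15.0 ± 2.57 CPM per kb, apart from both of its neighbors. Tgfa at 4.50 ± 0.287 and Egfr at 4.33 ± 0.201 CPM per kb overlapped. Egfr was thus listed far below its partner receptors. Btc stood at 1.82 ± 0.0743, Ereg at 0.704 ± 0.240 and Egf, the ligand that names the family, at 0.301 ± 0.0419 CPM per kb, each without overlap with its neighbors. Epgn was at the bottom with 3 counts over the 3 mice. The order changed in AOM-DSS WT mice only between overlapping neighbors, with Areg ahead of Erbb2 and Epgn at the level of Egf, and it was the control order again in AOM-DSS Claudin-2TG mice. Over all 9 mice, Areg made up 58.3% to 73.6% of the summed level per length of the 7 ligands and Hbegf 11.4% to 32.1%. Ereg took 2.17% to 2.45% of that sum in AOM-DSS WT mice, above the 0.641% to 1.36% of all other mice.

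**Figure D1:**
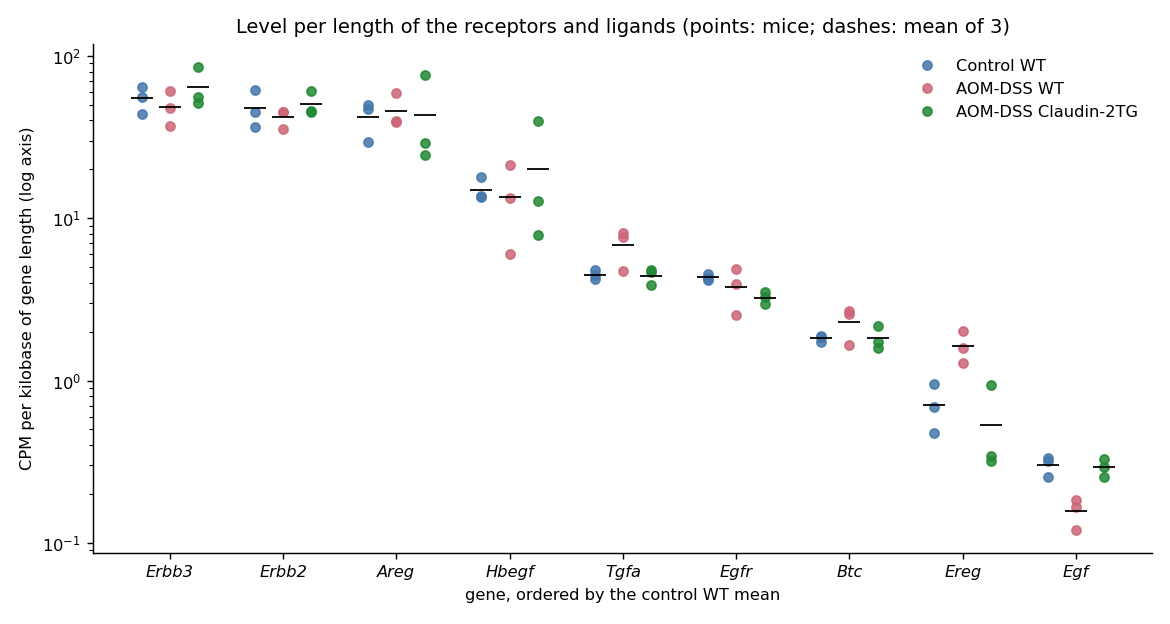
Level per length of 9 of the 10 genes on a log axis (CPM per kilobase), with points for mice and dashes for the means of 3 mice; Epgn, with at most 11 counts in a mouse, is not drawn. Erbb3, Erbb2 and Areg lie together at the top, Egfr near 4 CPM per kb, and Ereg and Egf at the bottom.

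Treatment of WT mice went with a higher level of 1 ligand, Ereg, and none of the receptors passed the test. Of the 9 genes with enough counts to test, 1 was called (adjusted p under 0.05), against 15.0% of the 15437 genes tested. The median log2 fold change of the 9 was -0.14, beside 0.02 over all genes tested. In 2 of the 9 (Egf and Ereg) the mice of both groups did not overlap, against 38.0% of all genes tested, and nor did they in Epgn, which was not tested.

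With the transgene, AOM-DSS mice showed no member past the threshold, 0 of 9 against 9.54% of 14888 genes tested with edgeR's quasi-likelihood test. At an unadjusted p under 0.05 there were 3 (Egf, Ereg and Tgfa), against 23.5% of all genes tested, and DESeq2 called 1 (Ereg), against 13.9%. Again 2 of the 9 (Egf and Ereg) did not overlap between the groups, against 28.0% of all genes tested, and nor did Epgn, which was not tested. The AOM-DSS WT mice enter this comparison and the preceding one, so an opposite sign in both is no separate evidence.

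Against control WT, AOM-DSS Claudin-2TG mice had a lower level of 1 receptor, Egfr. It was 1 of 9 genes called against 10.0% of 15013 genes tested, and the 1 gene of the 9 without overlap, against 31.4% of all genes. The median log2 fold change of the 9 tested genes was 0.01, beside 0.00 over all genes tested (0.002293 before rounding). The largest log2 fold change among the 9 was 0.43, that of Hbegf, which was not called.

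**Figure D2:**
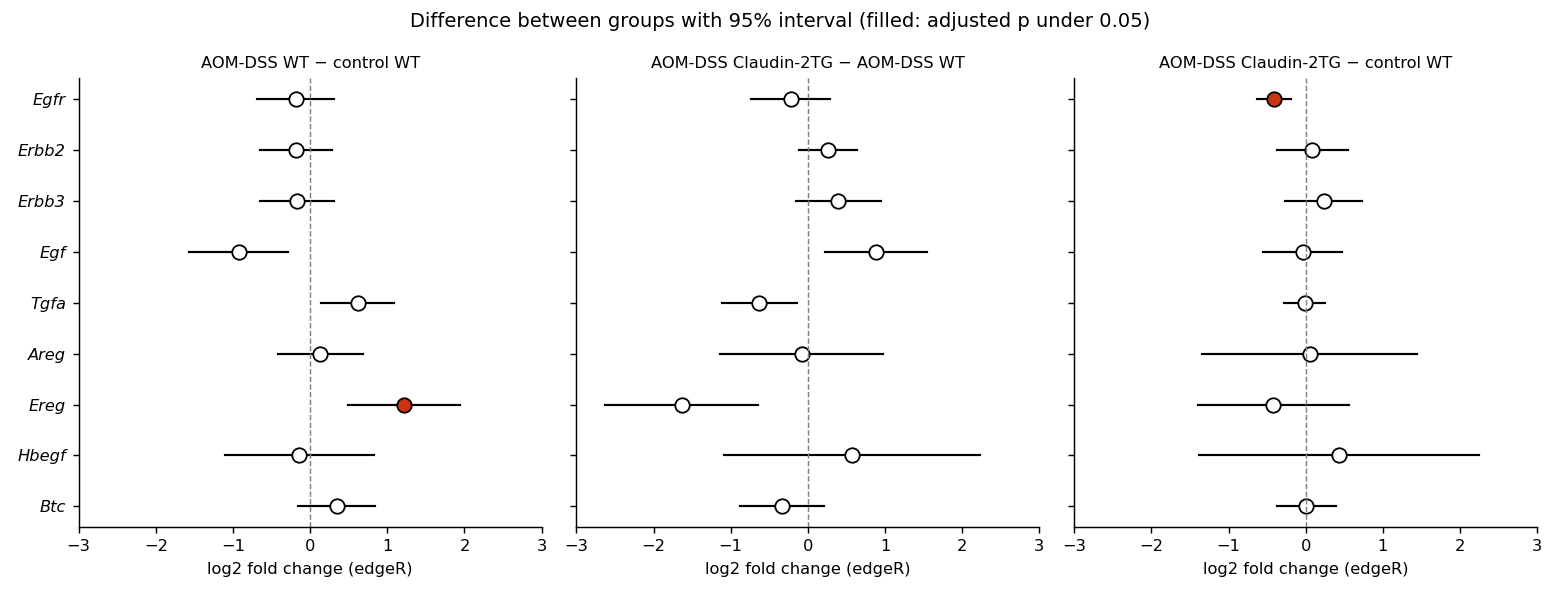
Log2 fold change with its 95% interval for the 9 tested genes in each of the 3 comparisons, filled where the adjusted p is under 0.05. Filled points are Ereg in AOM-DSS WT against control WT and Egfr in AOM-DSS Claudin-2TG against control WT.

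Among the receptors, Egfr (ENSMUSG00000020122, GRCm38 chromosome 11, 16752203 to 16918158, plus strand) encodes the one that binds the 7 ligands taken as the family. Its level was 47.1, 48.5 and 51.6 CPM in control WT, 28.8, 54.8 and 44.7 CPM in AOM-DSS WT and 37.0, 33.7 and 39.5 CPM in AOM-DSS Claudin-2TG mice. Every transgenic mouse lay below every control mouse, and the AOM-DSS WT mice spread around both groups. Egfr fell by 0.41 on the log2 scale in AOM-DSS Claudin-2TG against control WT mice (SE 0.10, adjusted p = 0.0301, edgeR's quasi-likelihood test; two-sided exact permutation p = 0.1, the smallest that 3 against 3 allow). The call was lost with all 9 mice in the fit (adjusted p = 0.264) and with the second lane only (0.111). It was also lost without mouse 1, 2, 3 or 8, where edgeR's adjusted p was 0.0570, 0.0693, 0.129 and 0.111. In the same comparison, markers of several other cell types were lower in transgenic mice and the epithelial sum was not. The 6 smooth muscle markers summed to 930 to 1441 CPM against 1948 to 3965 CPM in control WT, with 2 called lower. The 6 enteric glia markers summed to 2.27 to 3.52 CPM against 7.31 to 11.0 CPM. Sox10, S100b, Gfap and Cdh19 passed the filter on low counts only through the control mice, where they are high. No count of calls is therefore given for the glia list. The 6 endothelial markers summed to 21.0 to 24.2 CPM against 35.1 to 46.0 CPM, with 4 called lower. Over all genes tested in this comparison, 6.07% were called lower and 3.92% higher. The 8 fibroblast markers summed to 188 to 268 CPM against 300.1 to 427.5 CPM, with 1 called lower. The 8 neutrophil markers, nearly all Ly6g, summed to 303 to 348 CPM against 136 to 207 CPM, with Ly6g called higher. That sum rests on Ly6g alone. S100a8 stood at 0 to 0.201 CPM in transgenic and 0 to 0.258 CPM in control mice, and Csf3r at 0 to 0.138 and 0.0501 to 0.348 CPM. The part of these cells in the Egfr result was not tested, and in bulk RNA fewer cells of a type and less RNA per cell cannot be told apart. The 10 epithelial markers summed to 24590 to 29590 CPM in transgenic and 22760 to 23980 CPM in control mice, with 2 called higher. For AOM-DSS WT against control WT the Egfr difference was -0.19 (95% interval -0.69 to 0.32), and for AOM-DSS Claudin-2TG against AOM-DSS WT -0.22 (95% interval -0.73 to 0.28). Neither passed the test, and intervals of that width leave room for a change of the size seen against control WT.

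Erbb2 (ENSMUSG00000062312, GRCm38 chromosome 11, 98412470 to 98437716, plus strand), the partner receptor without a ligand, lies on the same chromosome. It had 189, 322 and 236 CPM in control WT, 237, 236 and 184 CPM in AOM-DSS WT and 317, 238 and 234 CPM in AOM-DSS Claudin-2TG mice. The 3 groups overlapped, with mouse 2 and mouse 7 on top. Its log2 differences were -0.18 (95% interval -0.65 to 0.29) in AOM-DSS WT against control WT, 0.26 (-0.11 to 0.64) in Claudin-2TG against WT after AOM-DSS, and 0.09 (-0.37 to 0.54) in Claudin-2TG against control WT. Erbb3 (ENSMUSG00000018166, GRCm38 chromosome 10, 128567523 to 128589652, minus strand), the neuregulin receptor, had 264, 389 and 338 CPM, then 288, 365 and 224 CPM, then 513, 337 and 306 CPM in the same order of groups. Mouse 7 was the highest for Erbb3, and the groups overlapped throughout. The log2 differences of Erbb3 were -0.17 (95% interval -0.66 to 0.31), 0.40 (-0.16 to 0.95) and 0.23 (-0.26 to 0.73). No difference of Erbb2 or Erbb3 was called, with adjusted p between 0.390 and 0.821 from edgeR's quasi-likelihood test. A p above the threshold does not show that groups were alike, and each interval still holds changes of about 1.2-fold or more. Erbb4, the remaining receptor, had 3 counts over all 9 mice and was too low to test (it was named after its counts were seen).

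**Figure D3:**
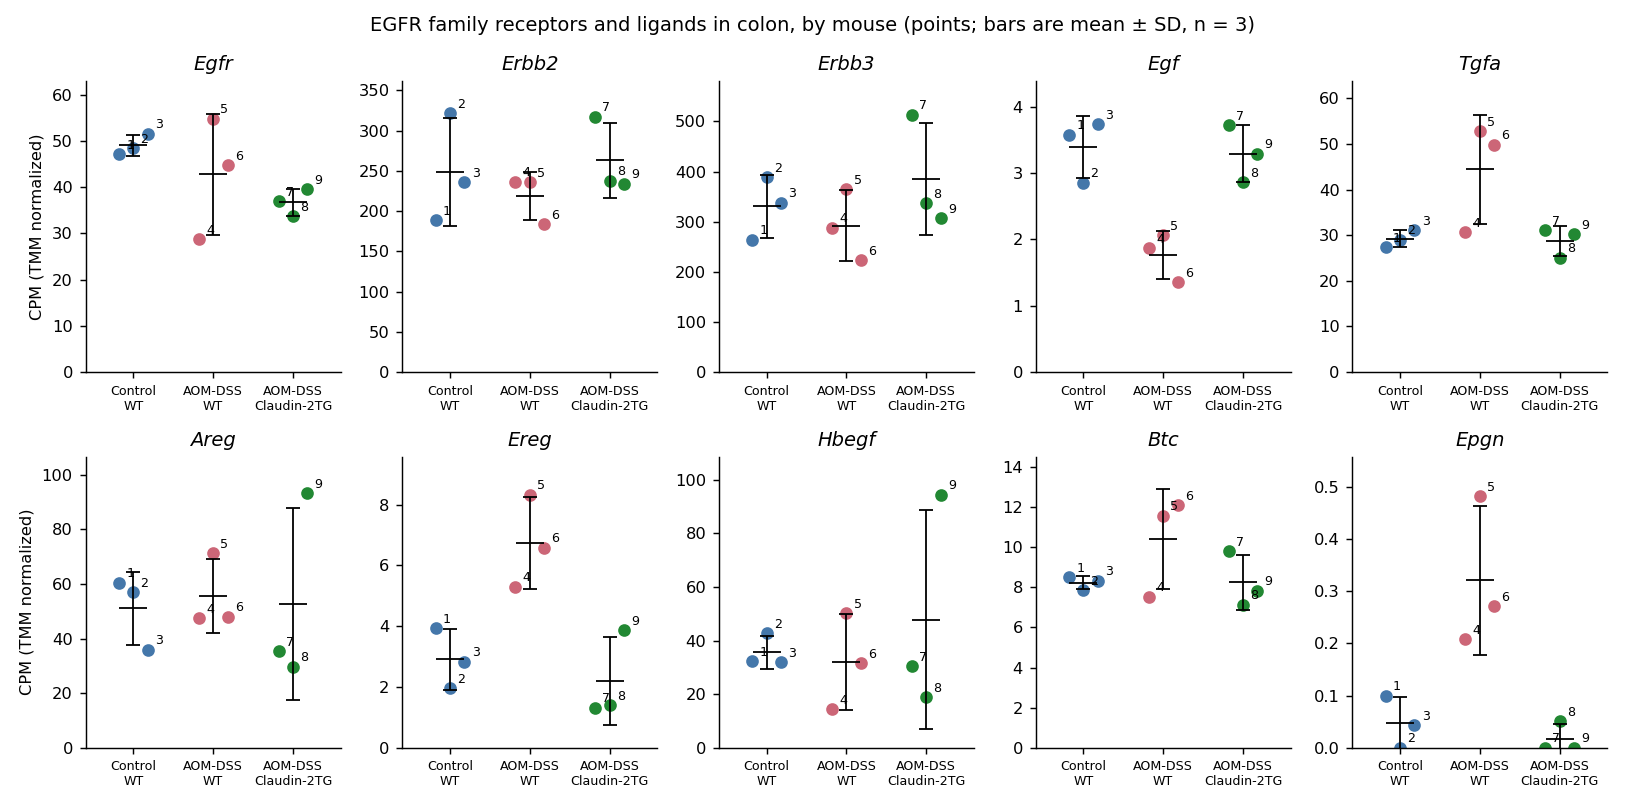
Level of each of the 10 genes in each mouse (CPM, TMM normalized; numbers are mice, bars are mean ± SD of 3 mice), with an axis of its own for each gene that starts at 0. AOM-DSS WT mice lie apart from both other groups for Egf, Ereg and Epgn, and mouse 9 lies above all others for Areg and Hbegf.

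Among the ligands, Ereg (ENSMUSG00000029377, GRCm38 chromosome 5, 91074622 to 91093646, plus strand) encodes epiregulin, which binds EGFR and ERBB4. Its level was 3.93, 1.95 and 2.84 CPM in control WT, 5.30, 8.33 and 6.59 CPM in AOM-DSS WT and 1.31, 1.41 and 3.88 CPM in AOM-DSS Claudin-2TG mice. All 3 AOM-DSS WT mice lay above the 6 other mice, and the control and transgenic mice overlapped. Ereg rose by 1.22 on the log2 scale in AOM-DSS WT against control WT (SE 0.31, adjusted p = 0.0388, edgeR's quasi-likelihood test; two-sided exact permutation p = 0.1, the smallest possible). The call was lost with all 9 mice in the fit (adjusted p = 0.0597) and with the second lane only (0.0958). It was also lost without mouse 1, 2, 3, 5 or 6, where edgeR's adjusted p was 0.0591, 0.127, 0.127, 0.101 and 0.0827, and it held without mouse 4 (0.0163). In AOM-DSS Claudin-2TG against AOM-DSS WT mice the Ereg difference was -1.63 (SE 0.44, 95% interval -2.63 to -0.64), just outside the threshold (adjusted p = 0.0507, edgeR's quasi-likelihood test). DESeq2 called it (0.00360), as did edgeR with library sizes only (0.0328), upper-quartile scaling (0.0435), no filter (0.0164), all 9 mice (0.0288) or the second lane only (0.0380). Leaving out mouse 4 (adjusted p = 0.0211) or mouse 9 (0.0477, with a log2 fold change of -2.30) also gave a call, and leaving out mouse 5, 6, 7 or 8 gave adjusted p of 0.105 to 0.184 with edgeR's test. Against control WT, transgenic mice differed by -0.42 (95% interval -1.40 to 0.56). Markers of leukocytes, which can also make this ligand, took the same order of groups. The sum of the 8 leukocyte markers was 44.9 to 95.2 CPM in control WT, 124 to 221 CPM in AOM-DSS WT and 24.0 to 55.4 CPM in AOM-DSS Claudin-2TG mice. Of these markers, 5 were called higher in AOM-DSS WT than in control WT and 6 lower in AOM-DSS Claudin-2TG than in AOM-DSS WT. Over all genes tested, 8.04% were called higher in the first of these comparisons and 7.35% lower in the second. Mzb1, among the 6 called lower, passed the filter on low counts there only through the AOM-DSS WT mice, where it is high. The 12 squamous epithelium markers summed to 13.0 to 19.0, 32.7 to 78.2 and 15.2 to 19.4 CPM in that order of groups, although Krt5 and Trp63 were under 0.1 CPM in the mean of each group and Sprr3 and Ivl at 0 in every mouse. The 8 fibroblast markers summed to 300.1 to 427.5, 470.9 to 1129 and 188 to 268 CPM, with 1 called higher in AOM-DSS WT than in control WT and 3 lower in AOM-DSS Claudin-2TG than in AOM-DSS WT. The part of any of these cell types in the Ereg levels was not tested. A gene on the other strand, Gm19610, shares 141 exon bases with Ereg but had 15 counts in all mice against 673 for Ereg.

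Egf (ENSMUSG00000028017, GRCm38 chromosome 3, 129677565 to 129755316, minus strand), the gene of epidermal growth factor, was measured at low levels and was not called in any of the 3 comparisons. It had 3.58, 2.85 and 3.74 CPM in control WT, 1.87, 2.06 and 1.36 CPM in AOM-DSS WT and 3.73, 2.87 and 3.29 CPM in AOM-DSS Claudin-2TG mice. The AOM-DSS WT mice were below all 6 others, which mixed with each other. The counts behind these levels were 216, 103 and 156 per group. For AOM-DSS WT against control WT the log2 difference was -0.93 (SE 0.28, 95% interval -1.57 to -0.29), which missed the threshold (adjusted p = 0.0590, edgeR's quasi-likelihood test) but was called by DESeq2 (0.0465) and with all 9 mice in the fit (0.0291). For AOM-DSS Claudin-2TG against AOM-DSS WT it was 0.88 (SE 0.29, 95% interval 0.22 to 1.55, adjusted p = 0.0988, edgeR's quasi-likelihood test), called with all 9 mice (0.0465). Between transgenic and control mice the difference was -0.04 (95% interval -0.55 to 0.47). Antisense genes share 607 and 500 exon bases with Egf and had 5 and 1 counts against 475 for Egf.

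Tgfa (ENSMUSG00000029999, GRCm38 chromosome 6, 86195223 to 86275719, plus strand) encodes transforming growth factor alpha, an epithelial ligand of EGFR. It had 27.4, 29.0 and 31.1 CPM in control WT, 30.7, 52.8 and 49.9 CPM in AOM-DSS WT and 31.1, 25.1 and 30.2 CPM in AOM-DSS Claudin-2TG mice. Mice 5 and 6 were above all others, and mouse 4 sat among the control and transgenic mice. In AOM-DSS WT against control WT the log2 difference was 0.61 (95% interval 0.14 to 1.09, adjusted p = 0.0805, edgeR's quasi-likelihood test), and without mouse 4 it was 0.82 and called (adjusted p = 0.00220). DESeq2 (0.0353) and the fit of all 9 mice (0.0424) called it as well. In AOM-DSS Claudin-2TG against AOM-DSS WT it was -0.63 (95% interval -1.12 to -0.15, adjusted p = 0.105, edgeR's quasi-likelihood test), called with all 9 mice (0.0486) and without mouse 4 (-0.84, adjusted p = 0.00314). Transgenic and control mice differed by -0.02 (95% interval -0.28 to 0.25), the narrowest interval but Egfr's in that comparison.

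Areg (ENSMUSG00000029378, GRCm38 chromosome 5, 91139599 to 91148432, plus strand) encodes amphiregulin and was the most abundant ligand per length. Its level was 60.4, 56.9 and 35.9 CPM in control WT, 47.5, 71.3 and 48.0 CPM in AOM-DSS WT and 35.4, 29.6 and 93.1 CPM in AOM-DSS Claudin-2TG mice. Mouse 9 was the highest of all, and mice 7 and 8 of its group were the lowest. The log2 differences were 0.13 (95% interval -0.42 to 0.68) in AOM-DSS WT against control WT, -0.08 (-1.14 to 0.98) in Claudin-2TG against WT after AOM-DSS, and 0.05 (-1.34 to 1.44) in Claudin-2TG against control WT. Without mouse 9 the last pair became -0.77 and -0.65 (adjusted p = 0.125 and 0.148, edgeR's quasi-likelihood test). The first of the pair also turned sign without mouse 5 (0.14), 7 (0.15) or 8 (0.22), and the second without mouse 3 (-0.15).

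Hbegf (ENSMUSG00000024486), the gene of heparin-binding EGF-like growth factor, which binds EGFR and ERBB4, was split in the same way. It had 32.3, 42.7 and 31.9 CPM in control WT, 14.3, 50.2 and 31.6 CPM in AOM-DSS WT and 30.4, 18.8 and 94.4 CPM in AOM-DSS Claudin-2TG mice. Mouse 9 was again on top, mouse 4 was the lowest, and all groups overlapped. The log2 differences were -0.14 (95% interval -1.11 to 0.82), 0.57 (-1.09 to 2.23) and 0.43 (-1.39 to 2.24) in the same order of comparisons. Leaving out mouse 9 turned the last pair to -0.39 and -0.54 (adjusted p = 0.792 and 0.203, edgeR's quasi-likelihood test). Fos and Egr1, immediate early genes that respond to growth factors and to handling of tissue, were also at their highest in mouse 9 (both were singled out after their values were seen). Fos stood at 616 CPM there and 108 to 281 CPM in the 8 other mice, and Egr1 at 188 CPM and 8.20 to 60.7 CPM. Their part in the Areg and Hbegf levels of that mouse was not tested.

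To show the stretch of DNA in front of the genes described here, promoters were taken from RefSeq on GRCm38.p6, from 250 bases before to 50 bases after the start. An entry was present for 7 of the 10 genes, and those of Areg (the leading ligand), Egfr (the receptor called) and Egf (the ligand lower in every AOM-DSS WT mouse than in all other mice) are printed 5′ to 3′. Capitals mark exact matches to a TATA box (TATAAA), a cyclic AMP response element (CRE, TGACGTCA), a GC box (CCGCCC) and an AP-1 site (TGANTCA), each searched on both strands. Areg lies at chr5:91139349-91139648 on the plus strand, Egfr at chr11:16751953-16752252 on the plus strand and Egf at chr3:129755273-129755572 on the minus strand, the last being 1 of 2 entries for that gene.
Areg: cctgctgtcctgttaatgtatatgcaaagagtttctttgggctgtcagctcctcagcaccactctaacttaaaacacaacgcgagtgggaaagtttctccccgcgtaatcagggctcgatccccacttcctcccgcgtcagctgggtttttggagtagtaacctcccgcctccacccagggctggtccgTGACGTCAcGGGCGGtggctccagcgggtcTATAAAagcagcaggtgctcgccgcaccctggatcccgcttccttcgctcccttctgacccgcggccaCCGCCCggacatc
Egfr: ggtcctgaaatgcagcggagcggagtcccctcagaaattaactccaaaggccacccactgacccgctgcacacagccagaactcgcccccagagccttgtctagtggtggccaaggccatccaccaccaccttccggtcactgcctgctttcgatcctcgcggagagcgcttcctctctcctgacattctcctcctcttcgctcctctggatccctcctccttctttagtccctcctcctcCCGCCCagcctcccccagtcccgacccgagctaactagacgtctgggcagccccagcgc
Egf: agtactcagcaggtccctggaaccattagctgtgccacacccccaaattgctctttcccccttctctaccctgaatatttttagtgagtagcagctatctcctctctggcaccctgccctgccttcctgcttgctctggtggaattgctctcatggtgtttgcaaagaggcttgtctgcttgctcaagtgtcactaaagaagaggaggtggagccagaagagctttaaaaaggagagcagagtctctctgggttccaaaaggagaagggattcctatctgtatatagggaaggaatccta
The Areg window held a CRE at -61, GC boxes at -52 and 38 and a TATA box at -31 from the start. The Egfr window held 1 GC box at -9, and the Egf window held none of the 4 motifs. Among 32851 promoters of the same length, 1.79% held the CRE, 13.6% the TATA box, 35.7% the GC box and 7.81% the AP-1 site. These are matches of letters and were not tested as binding sites.

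Btc (ENSMUSG00000082361, GRCm38 chromosome 5, 91357261 to 91402994, minus strand) encodes betacellulin, a ligand of EGFR and ERBB4. It had 8.51, 7.86 and 8.34 CPM in control WT, 7.53, 11.6 and 12.1 CPM in AOM-DSS WT and 9.80, 7.14 and 7.83 CPM in AOM-DSS Claudin-2TG mice. As for Tgfa, mice 5 and 6 were the highest and mouse 4 was not. The log2 differences were 0.34 (95% interval -0.16 to 0.84), -0.34 (-0.89 to 0.21) and 0.01 (-0.38 to 0.39), none of them called. Without mouse 4 the first was 0.53 and called (adjusted p = 0.0461, edgeR's quasi-likelihood test).

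Epgn (ENSMUSG00000035020, GRCm38 chromosome 5, 91027464 to 91035215, plus strand), the gene of epigen, was close to the limit of detection, with 23 counts in all. It had 2, 0 and 1 counts in control WT, 4, 11 and 4 counts in AOM-DSS WT and 0, 1 and 0 counts in AOM-DSS Claudin-2TG mice. A count of 0 allows up to 3 counts, 0.135 to 0.212 CPM in these libraries, so all 6 control and transgenic values lie under that limit. Over the summed counts, AOM-DSS WT mice had 7.07 times the control rate (95% interval 2.08 to 37.3) and 16.1 times the rate of AOM-DSS Claudin-2TG mice (95% interval 2.56 to 668), with intervals that cover counting error only. The filter on low counts removed the gene. Without that filter edgeR's quasi-likelihood test gave adjusted p = 0.0714 against control WT and 0.0477 for the transgenic against the WT mice after AOM-DSS.

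Of the 7 ligand genes, 4 (Epgn, Ereg, Areg and Btc) stood in 1 stretch of 375.5 kb on chromosome 5 (GRCm38, 91027464 to 91402994). The 3 other genes annotated there were Gm19610, Gm23092 and Gm19619, with 15, 0 and 31 counts over all mice. Levels along the stretch were unlike. In control WT mice the mean was 0.0475 CPM for Epgn, 2.91 CPM for Ereg, 51.1 CPM for Areg and 8.24 CPM for Btc. After AOM-DSS in WT mice, Ereg was the 1 gene of the 4 that passed the test, and Areg next to it did not.

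**Figure D4:**
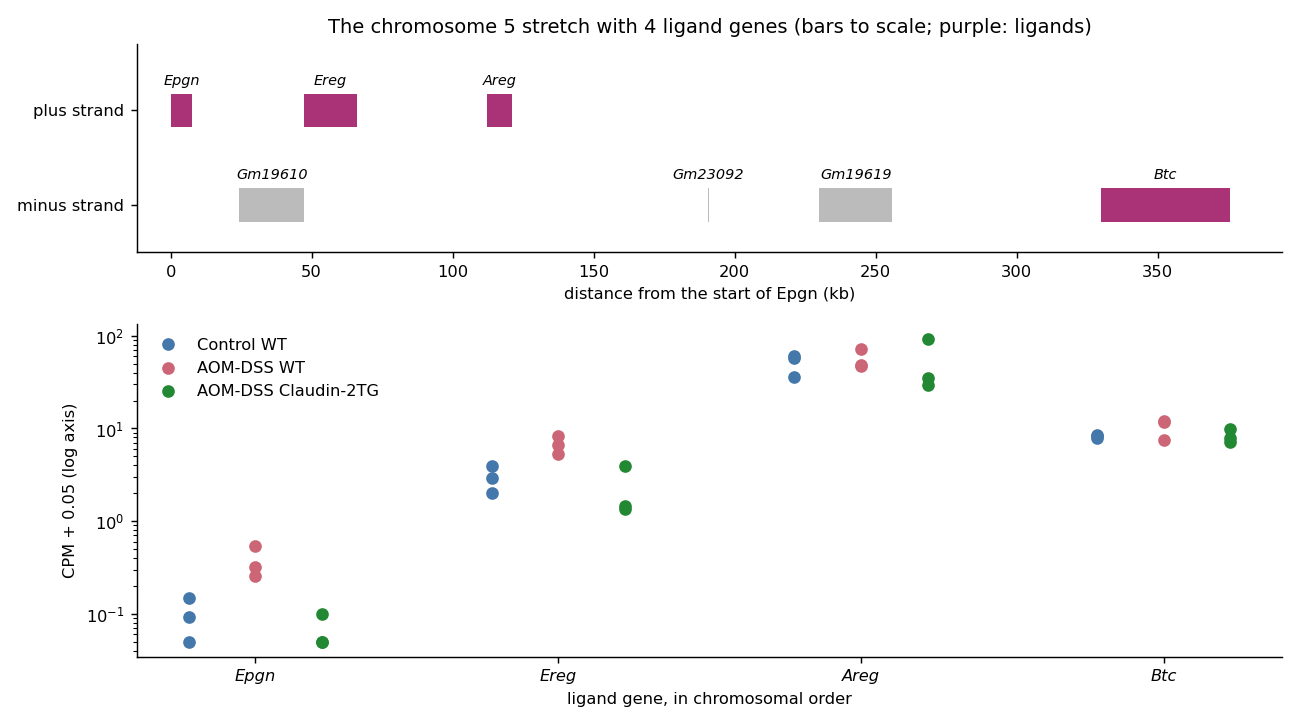
Above, the 7 annotated genes of the stretch to scale by distance from the start of Epgn (kb) and by strand, with ligand genes in purple; below, CPM + 0.05 on a log axis for the 4 ligand genes, with points for mice. AOM-DSS WT mice lie above both other groups for Epgn and Ereg and among them for Areg, while for Btc mice 5 and 6 lie above and mouse 4 among them.

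Around the receptors and ligands, 63 further genes of the pathway were read in 5 lists. Over all genes tested, 8.04% were called higher and 6.92% lower in AOM-DSS WT against control WT, 2.19% and 7.35% in AOM-DSS Claudin-2TG against AOM-DSS WT, and 3.92% and 6.07% in AOM-DSS Claudin-2TG against control WT. In the first comparison, 3 of 10 genes for shedding and trafficking of ligands rose and 0 fell. Of those that rose, Adam8 and Adam12 passed the filter on low counts only through the AOM-DSS WT mice, where they are high. This count is thus no support for a difference. Of 17 receptor inhibitors and feedback genes, 1 rose and 3 fell. Of 19 adaptors and members of the RAS-ERK cascade 2 rose, and of 12 genes that respond to ERK 1 rose. The list medians were 0.26, -0.24, -0.01 and 0.27, beside 0.02 over all genes tested. With the transgene after AOM-DSS, 2 of 10 shedding genes fell, 2 of 17 inhibitors rose, 1 of 19 cascade genes fell and 0 of 12 response genes were called (edgeR's quasi-likelihood test). Of the shedding genes that fell, Adam12 again passed the filter only through the AOM-DSS WT mice. The list medians were -0.24, 0.26, -0.01 and -0.66, beside 0.01 over all genes. Between transgenic and control mice, 1 of the 9 shedding genes tested rose, 1 of 17 inhibitors rose and 1 fell, 0 of 19 cascade genes were called and 1 of 12 response genes fell. The list of the fourth receptor and the neuregulins held 5 genes, of which 2 had enough counts to test, and 1 of these (Nrg1) fell with the transgene after AOM-DSS while neither was called against control WT. For AOM-DSS Claudin-2TG against AOM-DSS WT, Nrg1 passed the filter on low counts only through the AOM-DSS WT mice, where it is high.

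Lrig1 and Lrig3 belong to a family of membrane proteins, of which LRIG1 restrains EGFR family receptors by promoting their degradation and marks crypt stem cells. Lrig1 had 169, 203 and 205 CPM in control WT, 98.3, 85.6 and 85.3 CPM in AOM-DSS WT and 164, 157 and 207 CPM in AOM-DSS Claudin-2TG mice. All AOM-DSS WT mice were far below the others, which overlapped. Lrig1 fell by 1.09 on the log2 scale after AOM-DSS in WT mice (SE 0.12, adjusted p = 0.00492) and was higher by 0.97 in transgenic than in AOM-DSS WT mice (SE 0.14, adjusted p = 0.00879, edgeR's quasi-likelihood test). The first call held without any 1 of its 6 mice, and the second was lost without mouse 8 or 9, at an adjusted p of up to 0.0520. Lrig3 had 84.0, 88.7 and 93.7 CPM, then 51.5, 40.9 and 28.5 CPM, then 74.2, 71.5 and 75.6 CPM in the same order of groups. Its 3 groups did not overlap at all, with control WT on top. Lrig3 fell by 1.13 after AOM-DSS in WT mice (adjusted p = 0.0149) and was higher by 0.87 in transgenic than in AOM-DSS WT mice (adjusted p = 0.0293, edgeR's quasi-likelihood test), calls that were lost without mouse 2 or 3 and without mouse 5, 7, 8 or 9, at adjusted p of up to 0.0673 and 0.112. Spred2, an inhibitor of the RAS-ERK cascade, stood at 58.7 to 70.7 CPM in control WT, 31.9 to 40.5 CPM in AOM-DSS WT and 36.0 to 48.7 CPM in transgenic mice. It fell in both AOM-DSS groups against control WT, by 0.86 (adjusted p = 0.0115) and by 0.58 (adjusted p = 0.0215, edgeR's quasi-likelihood test). The first Spred2 call was lost without mouse 2 (0.0585), and the second with all 9 mice (0.0584) and without mouse 2, 3 or 8 (0.0649 to 0.0826). Dusp4, a phosphatase that acts on ERK, rose by 1.56 in AOM-DSS WT against control WT (adjusted p = 0.0472, edgeR's quasi-likelihood test), with mouse 4 at 9.19 CPM inside the control range of 5.32 to 9.36 CPM and mice 5 and 6 at 26.3 and 23.4 CPM. The Dusp4 call was lost with no filter (0.115) and without any 1 mouse but mouse 4 (0.0857 to 0.148). Socs4, which binds EGFR, was higher in transgenic than in control mice by 0.41 (adjusted p = 0.0357, edgeR's quasi-likelihood test). That call was lost with library size only, all 9 mice or the second lane and without any 1 mouse but mouse 8 (adjusted p of up to 0.124).

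The shedding genes that rose were 2 metalloproteases and a partner of such proteases. Adam8 had 0.796, 0.351 and 0.688 CPM in control WT, 2.86, 11.4 and 14.1 CPM in AOM-DSS WT and 1.17, 1.31 and 0.805 CPM in AOM-DSS Claudin-2TG mice. It rose by 3.94 in AOM-DSS WT against control WT (SE 0.65, adjusted p = 0.0138) and was lower in transgenic than in AOM-DSS WT mice (log2 difference -3.09, SE 0.59, adjusted p = 0.0190, edgeR's quasi-likelihood test). The Adam8 calls were lost without mouse 2 or 3 (0.0681 and 0.0582) and without mouse 5, 7, 8 or 9 (0.0588 to 0.0982). Its counts in control WT were 16, 7 and 16. In AOM-DSS WT against control WT, Adam8 thus passed the filter on low counts only through the AOM-DSS WT mice, where it is high. That call and the place of Adam8 in the list count of that comparison are no support for a difference. Adam12, known to release HB-EGF, had 6, 3 and 2 counts in control WT, 20, 115 and 63 counts in AOM-DSS WT and 1, 1 and 3 counts in transgenic mice. The AOM-DSS WT mice were above the rest for both genes, with mouse 4 nearest to them. Adam12 rose by 4.26 in AOM-DSS WT against control WT (SE 0.73, adjusted p = 0.0145, edgeR's quasi-likelihood test; lost without mouse 2 or 3, at 0.0728 and 0.0613), and its summed rate was 33.5 times that of transgenic mice (95% interval 14.1 to 104, counting error only). The fall with the transgene (log2 difference -4.94, adjusted p = 0.0115, edgeR's quasi-likelihood test) was lost without mouse 7, 8 or 9 (0.0545 to 0.0712). Adam12 passed the filter on low counts only through the AOM-DSS WT mice, where it is high, so its calls and its place in the list counts are no support for a difference. Rhbdf1, which encodes a rhomboid pseudoprotease that helps ADAM17 reach the cell surface, rose by 0.72 after AOM-DSS in WT mice (adjusted p = 0.0238, edgeR's quasi-likelihood test), from 27.1 to 29.8 CPM to 39.7 to 58.2 CPM, a call lost without any 1 of the 3 control mice (0.0701 to 0.0989). Adam17 itself, the main protease for several of these ligands (named after its values were seen), had mean levels of 48.3, 41.6 and 38.9 CPM and was not called in any comparison, with adjusted p of 0.360, 0.795 and 0.0737 from edgeR's quasi-likelihood test. Rhbdl2, an intramembrane protease, was higher by 0.36 in transgenic than in control mice (adjusted p = 0.0427, edgeR's quasi-likelihood test), a call lost without any 1 of the 6 mice (0.0570 to 0.188) and with library size only, 10 counts in every mouse, all 9 mice or the second lane (0.0526 to 0.248). ADAM8 is also made by leukocytes, whose summed markers are given above, and by neutrophils among them, and their part in its level was not tested.

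Nrg1, the gene of a ligand that reaches ERBB3 and ERBB4 rather than EGFR, had 2.69, 0.501 and 1.51 CPM in control WT, 1.92, 5.74 and 3.33 CPM in AOM-DSS WT and 0.828, 0.453 and 0.366 CPM in AOM-DSS Claudin-2TG mice. All transgenic mice were below all AOM-DSS WT mice, and control mice overlapped both groups. Nrg1 was lower in transgenic than in AOM-DSS WT mice by a log2 difference of -2.74 (SE 0.51, adjusted p = 0.0156, edgeR's quasi-likelihood test), a call lost without mouse 8 or 9 (adjusted p of up to 0.0866). Its counts in the transgenic mice were 12, 9 and 5. It passed the filter on low counts here only through the AOM-DSS WT mice, where it is high. The call and the place of Nrg1 in the list counts are thus no support for a difference. Fibroblasts are a known source of this ligand, and the 8 fibroblast markers summed to 188 to 268 CPM in transgenic and 471 to 1129 CPM in AOM-DSS WT mice, with 3 called lower, against 7.35% of all genes tested. Their part in the Nrg1 result was not tested.

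Downstream of the receptors, Plcg1, the phospholipase that docks on active EGFR, had 20.5, 24.3 and 22.1 CPM in control WT, 32.6, 42.0 and 47.6 CPM in AOM-DSS WT and 21.3, 22.8 and 20.6 CPM in AOM-DSS Claudin-2TG mice. AOM-DSS WT mice were apart from both other groups, which overlapped. Plcg1 rose by 0.87 after AOM-DSS in WT mice (adjusted p = 0.0173) and was lower in transgenic than in AOM-DSS WT mice by a log2 difference of -0.92 (adjusted p = 0.0133, edgeR's quasi-likelihood test). The Plcg1 calls were lost without any 1 control mouse (0.0630 to 0.0664) and without any 1 transgenic mouse (0.0555 to 0.0750), respectively. Map2k2, which encodes the ERK kinase MEK2, rose by 0.41 after AOM-DSS in WT mice (adjusted p = 0.0385, edgeR's quasi-likelihood test), a call lost with no filter (0.0736), the second lane (0.0639) and without mouse 1, 2, 3 or 6 (0.0971 to 0.151). Among the response genes, Plaur, the receptor of urokinase, rose by 2.68 in the same comparison (SE 0.45, adjusted p = 0.0157, edgeR's quasi-likelihood test), from 3.05 to 4.73 CPM to 10.1 to 32.2 CPM, a call lost without mouse 2 or 3 (0.0741 and 0.0626). Leukocytes make this receptor too, and in that comparison 5 of the 8 leukocyte markers were called higher, against 8.04% of all genes tested. The 8 neutrophil markers summed to 136 to 207 CPM in control WT, 307 to 374 CPM in AOM-DSS WT and 303 to 348 CPM in AOM-DSS Claudin-2TG mice, and nearly all of the sum was Ly6g in control and transgenic mice. S100a8 stood at 0 to 0.258, 0.571 to 18.3 and 0 to 0.201 CPM in that order of groups, and Ngp was at 0 in every mouse. As S100a8, S100a9 and Csf3r passed the filter on low counts only through the AOM-DSS WT mice, no count of calls is given for the neutrophil list. Their part in the Plaur result was not tested. Etv5, a transcription factor induced by ERK, fell by 0.88 in transgenic against control mice (adjusted p = 0.0316, edgeR's quasi-likelihood test), and was at 8.97 to 9.96 CPM in the transgenic group, 12.4 to 23.6 CPM in control WT and 9.92 to 31.7 CPM in AOM-DSS WT. The Etv5 call was lost with all 9 mice (0.237), the first lane (0.0692) and without any 1 mouse but mouse 2 (0.0596 to 0.108).

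**Figure D5:**
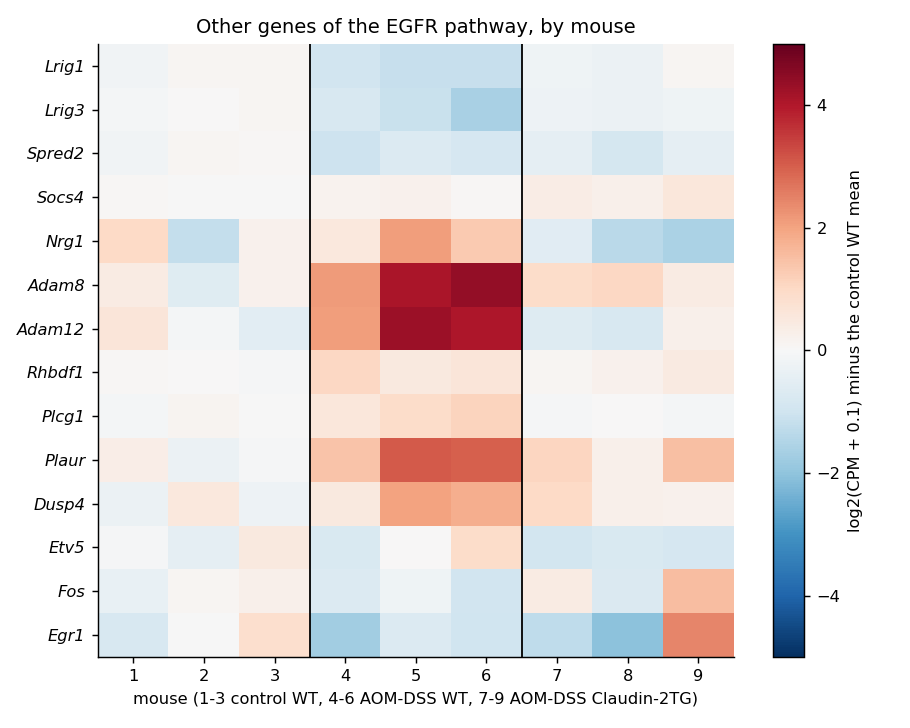
Each cell is log2(CPM + 0.1) of a pathway gene in 1 mouse minus the mean of the control WT mice (red higher, blue lower), with black lines between the 3 groups. Mice 4 to 6 stand out for Lrig1, Lrig3, Adam8, Adam12 and Plcg1, mice 5 and 6 for Plaur, and mouse 9 for Fos and Egr1.

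For Egfr, Areg and Ereg, the genes with the most similar course over the 9 mice were sought among 13914 genes with a mean of at least 1 CPM, by the root mean square difference of centered log2 CPM. Nearest to Egfr were Man2a1 (0.113), Tbc1d14 (0.118) and Pkp4 (0.119), where the median over all genes was 0.395 and Egfr itself varied by 0.289 around its mean. Nearest to Areg were Spry4 (0.284), C9orf72 (0.304) and Zdhhc13 (0.314), against a median of 0.570. Nearest to Ereg were Il2rg (0.290), Rinl (0.293) and Emb (0.318), against a median of 0.909. With 9 mice in 3 groups such a likeness follows the groups and single mice alike, and it is given as a description.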

How the data were processed

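Colon RNA from 9 mice was sequenced in 2 lanes each, and the deposited values are whole-number counts per gene, without normalization, for 47729 genes in 18 columns. The authors mapped the reads and counted them with featureCounts of the Subread package. The submitters' processing notes list HISAT2 and the build GRCm38, whereas the study's methods name TopHat2, and versions, annotation and strand setting are not given in the sources used here, so overlapping genes on opposite strands may share reads. Symbols were matched for 47224 identifiers. Lanes were added, and depth was 14142711 to 22262546 counts a mouse. Groups were taken from the genotype and treatment labels and compared 2 at a time on their 6 mice with edgeR 4.0.16 in R 4.3.3 (TMM, filterByExpr with a minimum count of 10 and a minimum total of 15, robust quasi-likelihood fit, two-sided test). Benjamini-Hochberg adjustment ran over all genes tested, genes were called at an adjusted p under 0.05, the standard error was derived from the test statistic, and intervals are 95%. CPM used TMM over the 9 mice. Single genes had an exact permutation test over mice. Ratios for genes with at most 3 counts in each mouse of a group have exact counting intervals. Alternatives were DESeq2 1.42.0, its size factors, library size only, upper quartile, no filter, 10 counts in every mouse, all 9 mice, each lane, and leaving out each mouse; for pathway genes outside the family they were chosen after seeing the data. The code was tested on simulated data, with tables computed in Python 3.11.15 (pandas 2.3.3, scipy 1.17.1, numpy 2.4.6) and plots drawn with matplotlib 3.10.9. Named were all family members, up to 3 called genes with the largest fold change in each direction from each pathway list and comparison, Cldn2, the chromosome 5 neighbors, and 3 nearest profiles each for Egfr, Areg and Ereg; exceptions are marked. The members and lists were chosen with earlier results of these data known.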

Additional observations from a re-analysis of the deposited data

How the results depend on the processing

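Under the alternatives, the members called numbered 3 with DESeq2, 2 with all 9 mice and 0 with the second lane in AOM-DSS WT against control WT, where 1 was reported. For AOM-DSS Claudin-2TG against AOM-DSS WT, where 0 were reported, they numbered 1 with DESeq2, library size only, upper quartile or the second lane, 2 with no filter and 3 with all 9 mice, and for AOM-DSS Claudin-2TG against control WT they numbered 0 with all 9 mice or the second lane. Leaving out single mice gave 0 to 3, 0 to 2 and 0 to 1 members. Among the log2 fold changes of AOM-DSS WT against control WT, Ereg lost its call with all 9 mice (1.21) and the second lane (1.05), and calls were gained by Egf with DESeq2 (-0.92) and all 9 mice (-0.93) and by Tgfa with DESeq2 (0.62) and all 9 mice (0.61). For AOM-DSS Claudin-2TG against AOM-DSS WT, Ereg was called with DESeq2 (-1.64), library size only (-1.75), upper quartile (-1.67), no filter (-1.61), all 9 mice (-1.63) and the second lane (-1.88), and with all 9 mice Egf (0.89) and Tgfa (-0.63) were called. Egfr lost its call in AOM-DSS Claudin-2TG against control WT with all 9 mice (-0.42) and the second lane (-0.34). In that comparison the sign turned for Erbb2 (-0.021), Areg (-0.080) and Btc (-0.11) with library size only, for Areg (-0.010) and Egf (0.38) with the second lane, for Tgfa with the first lane (0.00380), and for Btc with upper quartile (-0.00599) and 10 counts in every mouse (-0.00791), none of them called. Leaving out single mice changed a call or turned a sign in AOM-DSS WT against control WT for Egfr (-0.42 to 0.032), Erbb2 (-0.35 to 0.040), Ereg (0.99 to 1.49), Areg (-0.0945 to 0.26), Hbegf (-0.63 to 0.21), Tgfa (0.47 to 0.82), Btc (0.22 to 0.53) and Cldn2 (-0.94 to -0.74). In AOM-DSS Claudin-2TG against AOM-DSS WT it did so for Egfr (-0.44 to 0.00117), Ereg (-2.30 to -1.36), Areg (-0.77 to 0.22), Hbegf (-0.39 to 1.06), Tgfa (-0.84 to -0.48) and Cldn2 (0.71 to 0.84). In AOM-DSS Claudin-2TG against control WT it did so for Egfr (-0.47 to -0.36), Erbb2 (-0.0765 to 0.31), Erbb3 (-0.036 to 0.37), Egf (-0.15 to 0.050), Areg (-0.65 to 0.33), Hbegf (-0.54 to 0.81), Tgfa (-0.080 to 0.072), Btc (-0.14 to 0.10) and Cldn2 (-0.15 to 0.055). It also moved values by over 1.5 times, with no change of sign or call, for Erbb3 in the first comparison (-0.37 to -0.0102), Erbb2 (0.12 to 0.35), Erbb3 (0.15 to 0.59) and Btc (-0.52 to -0.20) in the second and Ereg in the third (-1.09 to -0.14). Over all genes, 2310 were called in the first comparison, and 135 to 4080 without single mice (75 to 2241 of 1241 higher, 60 to 1839 of 1069 lower), the most without mouse 4 and the fewest without mouse 2. Of 1421 genes in the second, 326 higher and 1095 lower, 58 (without mouse 8) to 2894 (without mouse 4) were called, 10 to 919 higher and 48 to 1975 lower, with 908 (671 lower) for 10 counts in every mouse, 2136 (642 higher) for all 9 mice and 588 higher with DESeq2. Of 1501 in the third, 589 higher and 912 lower, 525 to 1383 were called without single mice, 178 to 585 higher and 347 to 803 lower, with 2567 for no filter (1022 higher, 1545 lower), 445 for all 9 mice (116 higher, 329 lower), 276 higher with library size only and 596 lower with the second lane. The cause of these shifts was not tested. Of 405 values of the 9 tested members under alternatives, 344 kept direction and side of the threshold. No paired analysis was possible because the groups compared share no replicate number. Egf, Ereg and Epgn rest on few counts, which limits how small a difference could be seen.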
